A study of Homo sapiens with 27 samples.

Results

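The nuclear genes of the respiratory chain, 61 of the 55882 gene symbols counted, were examined in U2OS osteosarcoma cells as the cultures went from subconfluent to overconfluent and in lines depleted of MMP-2, a matrix metalloproteinase that also acts in the nucleus as a protease of the histone H3 N-terminal tail. The rule that chose them uses gene symbols and no measured value, but it was set with earlier results of these data known. There were 38 genes of complex I, 4 of complex II, 9 of complex III and 10 of complex IV, with pseudogenes left out. RNA-seq of poly(A) RNA had been done on 27 libraries, 3 for each of 9 groups. The cells were U2OS, an established human osteosarcoma line, and all of them carried a stable lentiviral pLKO.1 construct. The control line carried the vector without a hairpin against MMP2, and the MMP2sh1 and MMP2sh2 lines each carried a different short hairpin RNA against MMP2. Each was 1 transduced line selected with puromycin. Each line was collected when subconfluent (day −2), confluent (day 0) and overconfluent (day +2). The replicates of a group are described as independent biological replicates.

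The respiratory chain sits in the inner mitochondrial membrane. Complex I takes electrons from NADH and complex II takes them from succinate, ubiquinol carries them to complex III, cytochrome c carries them to complex IV, and complex IV passes them to oxygen, while complexes I, III and IV pump protons that drive ATP synthase. Most subunits are encoded in the nucleus and imported, whereas a few core subunits are encoded on mitochondrial DNA. NRF1, the ETS factor GABP and YY1 are known regulators of many of the nuclear genes.

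Promoter windows (250 bases before to 50 after the annotated start, RefSeq, GRCh38.p14) were given for 51 of the 61 genes. They were searched on both strands for the NRF1 core GCATGCGC, the ETS core CCGGAAGT and the YY1 core AAGATGGC. A gene was counted once if any of its windows held the letters. The NRF1 core was found in 10 of the 51 genes (19.6%) and in 3.68% of the 27305 genes with a window, the ETS core in 8 (15.7%) and in 4.95%, and the YY1 core in 9 (17.6%) and in 3.52%. At least one of them was found in 22 of 51 members (43.1%) and in 11.2% of all genes. Windows of 5 members whose transcripts fell from day −2 to day +2 in every line are shown because they hold such letters, which are in capitals. The SDHB window is at chr1:17053983-17054282 on the minus strand, NDUFA8 at chr9:122159730-122160029 on the minus strand, NDUFS7 at chr19:1383657-1383956 on the plus strand, UQCRC1 at chr3:48609597-48609896 on the minus strand and COX5B at chr2:97645812-97646111 on the plus strand, each printed 5′ to 3′ in the direction of the gene.
SDHB (NRF1, then YY1): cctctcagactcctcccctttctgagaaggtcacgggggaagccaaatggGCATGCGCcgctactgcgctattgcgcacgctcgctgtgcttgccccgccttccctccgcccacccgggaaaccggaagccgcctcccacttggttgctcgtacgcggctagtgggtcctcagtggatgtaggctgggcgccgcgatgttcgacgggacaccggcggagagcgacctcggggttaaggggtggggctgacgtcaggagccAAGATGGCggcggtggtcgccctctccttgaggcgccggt
NDUFA8 (NRF1 on both strands, overlapping): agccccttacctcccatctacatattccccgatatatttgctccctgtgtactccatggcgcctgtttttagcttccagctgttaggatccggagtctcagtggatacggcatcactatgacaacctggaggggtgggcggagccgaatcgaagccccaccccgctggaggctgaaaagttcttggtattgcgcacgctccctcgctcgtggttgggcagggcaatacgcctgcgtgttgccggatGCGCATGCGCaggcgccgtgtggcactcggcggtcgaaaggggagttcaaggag
NDUFS7 (NRF1, then YY1): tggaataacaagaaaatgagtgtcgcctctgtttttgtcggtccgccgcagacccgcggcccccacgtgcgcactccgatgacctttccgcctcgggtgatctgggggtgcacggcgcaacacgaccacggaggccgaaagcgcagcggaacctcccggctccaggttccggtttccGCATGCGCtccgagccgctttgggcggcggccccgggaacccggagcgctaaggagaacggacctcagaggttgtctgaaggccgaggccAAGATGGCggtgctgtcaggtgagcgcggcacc
UQCRC1 (YY1): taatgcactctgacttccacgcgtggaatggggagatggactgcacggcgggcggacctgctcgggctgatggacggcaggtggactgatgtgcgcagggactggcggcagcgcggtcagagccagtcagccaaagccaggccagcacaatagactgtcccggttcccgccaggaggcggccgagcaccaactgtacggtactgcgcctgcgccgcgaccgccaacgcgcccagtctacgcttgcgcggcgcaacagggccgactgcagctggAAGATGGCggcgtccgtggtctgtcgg
COX5B (NRF1, then ETS, then ETS): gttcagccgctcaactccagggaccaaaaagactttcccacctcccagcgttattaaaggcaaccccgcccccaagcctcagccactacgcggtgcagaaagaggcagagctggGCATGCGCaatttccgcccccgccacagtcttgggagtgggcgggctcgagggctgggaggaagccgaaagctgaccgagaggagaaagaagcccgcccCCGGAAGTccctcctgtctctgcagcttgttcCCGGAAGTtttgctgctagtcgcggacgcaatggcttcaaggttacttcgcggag
The YY1 letters began 11, 18 and 24 bases after the start in SDHB, NDUFS7 and UQCRC1. A match of letters is a description of the window and not evidence that a factor is bound there.

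Between 33580129 and 59374327 reads were counted on genes in a library, and the 61 members took 0.455% to 0.61% of them. MMP2 was lower than control in both hairpin lines at each day, at 0.173 to 0.198 times the control level in MMP2sh1 and at 0.481 to 0.617 times in MMP2sh2. The bone and mesenchymal markers SPARC, COL1A1, RUNX2 and VIM were all expressed, although COL1A2 was at 0 to 0.683 CPM, and the 7 counted markers of epithelial, endothelial, blood and immune cells summed to 3.78 to 10.1 CPM per library. Levels below are CPM, counts scaled to library size with TMM factors, so they are shares of a library and not amounts per cell, and fewer cells expressing a gene cannot be told apart from less of its RNA per cell. Reads were counted without strand, and reads on exons shared by several genes were discarded. The greater part of the canonical transcript lay under another annotated gene for 7 members (SDHA, NDUFS7, NDUFA7, NDUFA11, NDUFB8, NDUFA13 and NDUFV2). These overlaps are from a GRCh37 annotation that may differ from the one used for counting, so the counts of these members may be partial. NDUFA13 had 2 to 79 counts per library and NDUFV2 had 33 to 110, and reads on its pseudogene symbol came to 131% of those on NDUFV2 itself. Both are kept in the counts of calls, where NDUFA13 is 1 of the members called higher from day −2 to day +2 in control and in MMP2sh1, and no fold change of either is given in the text.

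The question of the first comparisons was how these genes changed as the cultures expanded. From day −2 to day +2 most members fell, in each of the 3 lines, which share no library. In the control line 32 of 61 members were called lower and 2 higher at an adjusted p under 0.05 in edgeR's quasi-likelihood test, against 28.6% of all genes tested called lower and 28.1% called higher. MMP2sh1 had 40 lower and 3 higher (all genes 27.7% and 27.3%), and MMP2sh2 had 45 lower and 2 higher (all genes 27.1% and 27.7%). The median log2 fold change of the members was −0.21 in control, −0.40 in MMP2sh1 and −0.33 in MMP2sh2, where that of all genes tested lay between 0.028 and 0.048. In all 3 lines at once, 30 members were called lower and 0 higher, which is 49.2% of the members, against 21.6% lower and 19.4% higher of the 18164 genes tested in every line. By complex, these were 17 of 38 genes of complex I, 4 of 4 of complex II, 6 of 9 of complex III and 3 of 10 of complex IV. Another 17 members were called lower in 1 or 2 lines, 10 were called in none, and 4 were called higher in 1 or 2 lines and lower in none. The summed level of the 61 members was 5977, 6106 and 5553 CPM in the control libraries of day −2 and 4763, 5181 and 4980 CPM in those of day +2. It was 6306, 5916 and 6213 CPM at day −2 and 4990, 4418 and 4517 CPM at day +2 in MMP2sh1, and 5756, 5825 and 6444 CPM and 4498, 4565 and 4691 CPM in MMP2sh2. No library of day +2 reached the lowest library of day −2 in any line.

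The share of reads on no gene was 5.69% to 7.11% at day −2 and 7.53% to 8.79% at day +2, so it moved with the day, and its part in the result was not tested. With library totals in place of TMM factors the median of all genes tested rose from 0.028 to 0.13 in control, from 0.038 to 0.14 in MMP2sh1 and from 0.048 to 0.19 in MMP2sh2, the medians of the members became −0.113, −0.299 and −0.191, and the split of lower and higher members became 28 and 11 in control, 38 and 3 in MMP2sh1 and 29 and 6 in MMP2sh2.

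**Figure D1:**
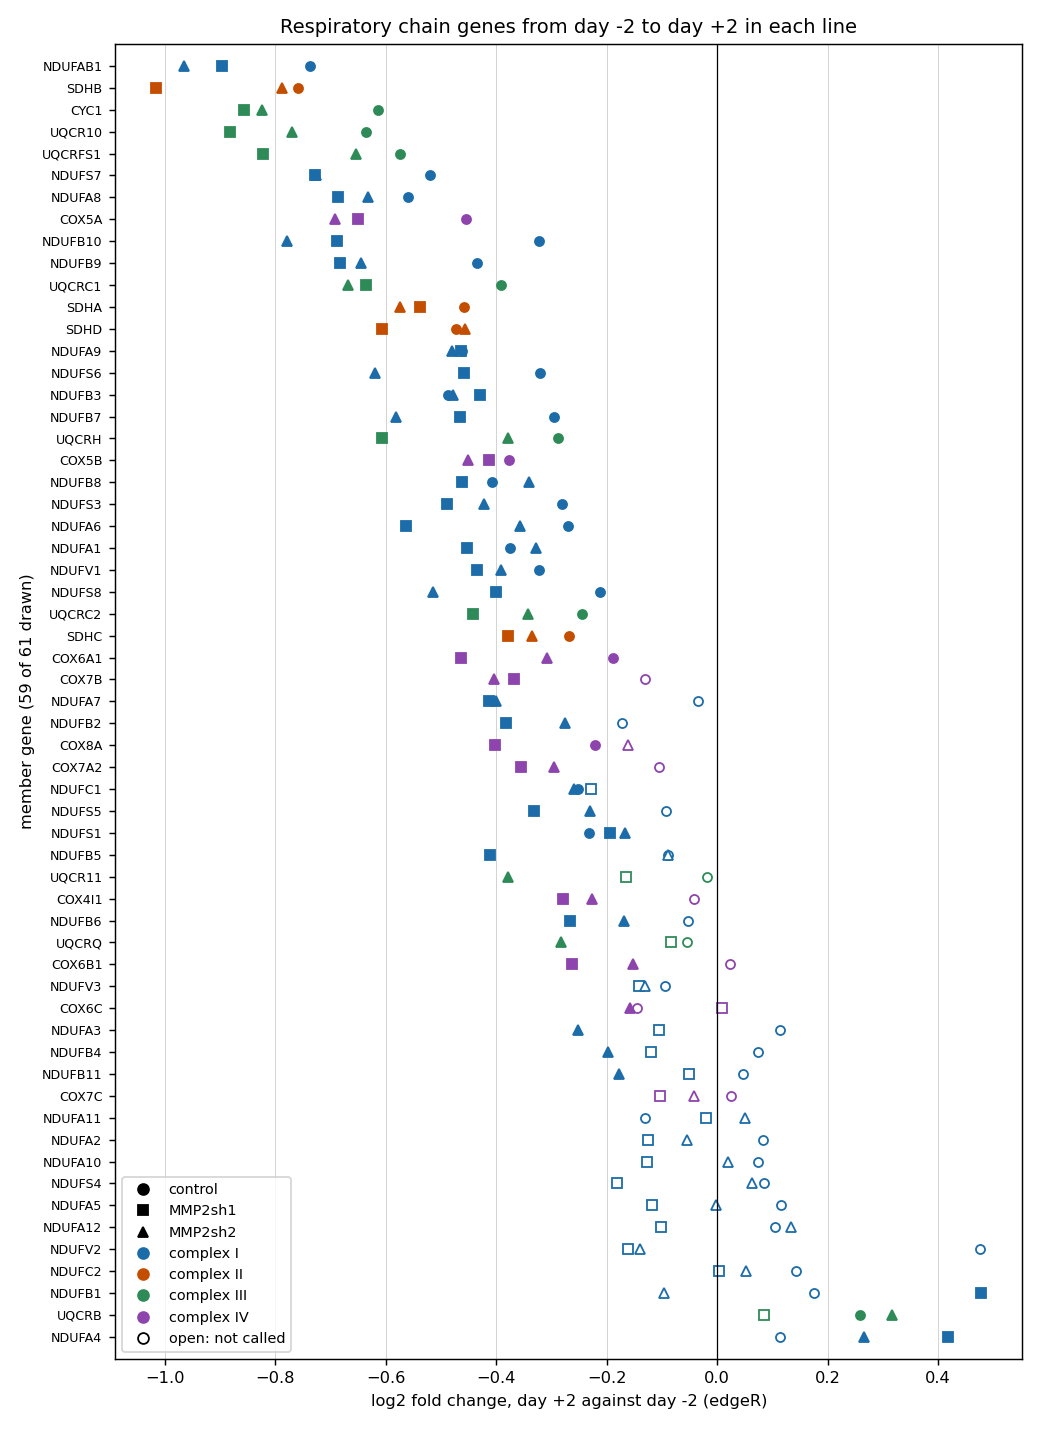
Log2 fold change from day −2 to day +2 (x axis, edgeR) of 59 members (y axis, ordered by the mean over lines) in control (circles), MMP2sh1 (squares) and MMP2sh2 (triangles). Colours mark the complex and filled symbols were called at an adjusted p under 0.05. NDUFAB1 and SDHB are at the top, and UQCRB and NDUFA4 are the lowest rows, to the right of 0.

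**Figure D2:**
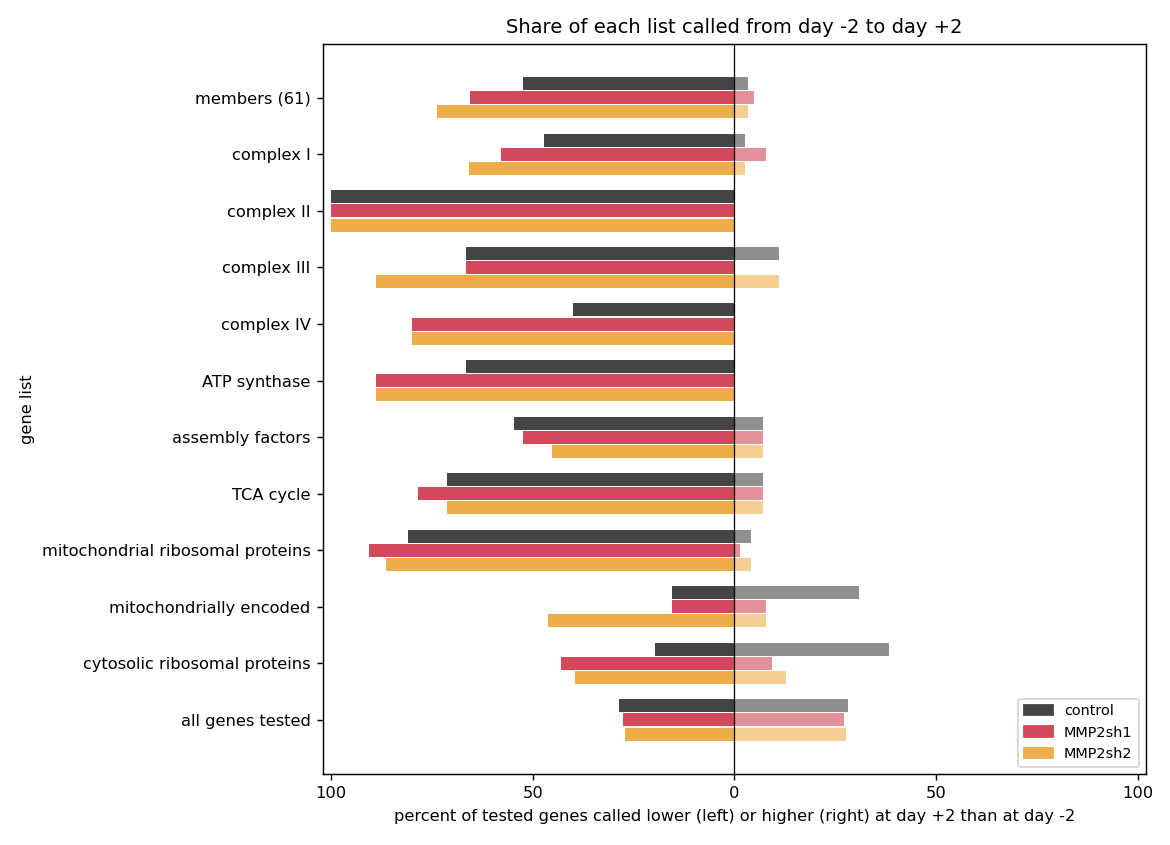
Percent of the tested genes of each list that were called lower (bars to the left) or higher (bars to the right, paler) at day +2 than at day −2, one bar for each line. The lists of nuclear mitochondrial genes reach farther to the left than all genes tested, and the mitochondrially encoded and cytosolic ribosomal lists do not do so in every line.

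In complex I the largest fall was in NDUFAB1 (GRCh37 chromosome 16, 23592335 to 23607637, minus strand), the mitochondrial acyl carrier protein, which is both a subunit of the complex and a carrier in mitochondrial fatty acid synthesis. Its level in control was 79.9, 79.9 and 74.5 CPM at day −2, 60.8, 54.2 and 56.6 CPM at day 0 and 43.9, 50.2 and 45.9 CPM at day +2, so the 3 days did not overlap. The log2 fold change from day −2 to day +2 was −0.74 (SE 0.06, adjusted p = 5.37e-11) in control, −0.90 (SE 0.08, adjusted p = 9.06e-10) in MMP2sh1 and −0.96 (SE 0.08, adjusted p = 2.94e-12) in MMP2sh2. In MMP2sh2 its level was 74.2, 78.8 and 86.3 CPM at day −2, 70.1, 67.3 and 70.0 CPM at day 0 and 41.6, 36.2 and 44.2 CPM at day +2, and here too no days overlapped. NDUFS7, a core subunit with an iron-sulphur cluster, was called lower in every line, at −0.52, −0.73 and −0.73 in control, MMP2sh1 and MMP2sh2. NDUFV1, which binds NADH and the flavin, fell by less (−0.32, −0.43 and −0.39), and NDUFS1, the largest core subunit, by less again (−0.23, −0.19 and −0.17), both called in every line. The levels of NDUFS1 in control were 133, 123 and 126 CPM at day −2 and 110.3, 113 and 101 CPM at day +2, which did not overlap. Of the 31 accessory members of complex I, 11 were called lower in every line. Their values ran from −0.74 for NDUFAB1 and −0.56 for NDUFA8 to −0.27 for NDUFA6 in control. NDUFB10 fell by a larger value in both hairpin lines than in control (−0.32, −0.69 and −0.78). Accessory members called in no line were NDUFV3, NDUFA2, NDUFA5, NDUFA10, NDUFA11, NDUFA12, NDUFC2 and NDUFS4. In each line at least 18 of the 38 genes of complex I were called lower, with 18 in control, 22 in MMP2sh1 and 25 in MMP2sh2.

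All 4 subunits of complex II, succinate dehydrogenase, were called lower at day +2 than at day −2 in all 3 lines. SDHB, the iron-sulphur subunit (GRCh37 chromosome 1, 17345159 to 17380527, minus strand), was at 70.4, 68.6 and 67.7 CPM in the control libraries of day −2, 58.6, 54.2 and 55.8 CPM at day 0 and 37.2, 45.0 and 39.4 CPM at day +2. In MMP2sh1 it went from 84.0, 68.7 and 76.7 CPM to 36.7, 36.8 and 40.3 CPM, with no overlap. The log2 fold changes were −0.76 (SE 0.07, adjusted p = 1.29e-10), −1.01 (SE 0.08, adjusted p = 1.31e-10) and −0.79 (SE 0.07, adjusted p = 5.13e-11) in control, MMP2sh1 and MMP2sh2. SDHA, the flavoprotein that oxidises succinate, changed by −0.46, −0.54 and −0.57, SDHD by −0.47, −0.61 and −0.46 and SDHC by −0.27, −0.38 and −0.34. SDHC and SDHD anchor the enzyme in the membrane. About 18.3% as many reads as on SDHA itself lay on its pseudogene symbols, so part of its reads may be counted elsewhere. The summed level of the 4 genes went from 479 ± 8.82 to 444 ± 15.4 and 346 ± 14.8 CPM in control (SD, n = 3), so most of the fall lay between day 0 and day +2. From day −2 to day 0 only 1 of the 4 (SDHB) was called lower in control, 2 in MMP2sh1 and 1 in MMP2sh2. From day 0 to day +2 all 4 were called lower in control and MMP2sh1 and 3 in MMP2sh2, where SDHC had −0.14.

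Complex III, which passes electrons from ubiquinol to cytochrome c, held 3 of the 5 members with the largest mean fall over the 3 lines. CYC1, cytochrome c1, was at 395, 403 and 390.4 CPM in control at day −2 and 237, 267 and 270.2 CPM at day +2. Its log2 fold change was −0.61 (SE 0.05, adjusted p = 4.57e-11) in control, −0.86 (SE 0.06, adjusted p = 1.24e-11) in MMP2sh1 and −0.82 (SE 0.06, adjusted p = 4.53e-13) in MMP2sh2. UQCRFS1, the Rieske iron-sulphur protein, was at 237, 239 and 217 CPM at day −2, 182, 176 and 195 CPM at day 0 and 147, 161 and 156 CPM at day +2 in control, and none of these days overlapped. It changed by −0.57, −0.82 and −0.65 in the 3 lines. The small subunit UQCR10 changed by −0.64, −0.88 and −0.77. The core proteins UQCRC1 and UQCRC2 were also called lower in every line, with −0.39, −0.64 and −0.67 for UQCRC1 and −0.24, −0.44 and −0.34 for UQCRC2, as was the hinge protein UQCRH (−0.29, −0.61 and −0.38). The small subunits UQCRQ and UQCR11 were called lower in MMP2sh2, with −0.28 and −0.38, and had values between −0.16 and −0.018 in the other lines. UQCRB, the ubiquinone-binding subunit, went the other way. Its level was 77.2, 79.0 and 61.3 CPM at day −2, 93.7, 76.9 and 86.9 CPM at day 0 and 85.2, 87.9 and 86.9 CPM at day +2 in control, and the log2 fold change from day −2 to day +2 was 0.26, 0.085 and 0.32, called in control and MMP2sh2 and not in MMP2sh1. It was the only member called higher at day 0 than at day −2 in all 3 lines (0.25, 0.29 and 0.56), and from day 0 to day +2 it was called lower in both hairpin lines (−0.19 and −0.23).

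Complex IV is cytochrome c oxidase. Of its 10 genes, COX5A, COX5B, COX6A1 and COX8A were called lower in control from day −2 to day +2, against 8 of 10 in MMP2sh1 and 8 of 10 in MMP2sh2. COX5A, a nuclear subunit that faces the matrix, was at 89.5, 87.5 and 89.7 CPM at day −2 and 60.4, 68.8 and 64.7 CPM at day +2 in control, with log2 fold changes of −0.45, −0.65 and −0.69 in the 3 lines. COX5B changed by −0.38, −0.41 and −0.45 and COX6A1 by −0.19, −0.46 and −0.31. COX4I1, the ubiquitous form of the largest nuclear subunit, was at 310.4, 333 and 296 CPM at day −2 and 279, 307 and 322 CPM at day +2 in control, which overlapped, and had −0.041 there (adjusted p = 0.534). It was called lower in MMP2sh1 and MMP2sh2, with −0.28 and −0.23. COX7A2, COX7B and COX6B1 had the same calls, COX6C was called lower in MMP2sh2 (−0.16), and COX7C was called in no line. COX8A was called lower in control and MMP2sh1 (−0.22 and −0.40) and had −0.16 in MMP2sh2 (adjusted p = 0.065). No gene of complex IV had a called difference between the lines in this change, so the unlike counts are not shown to be a difference.

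**Figure D3:**
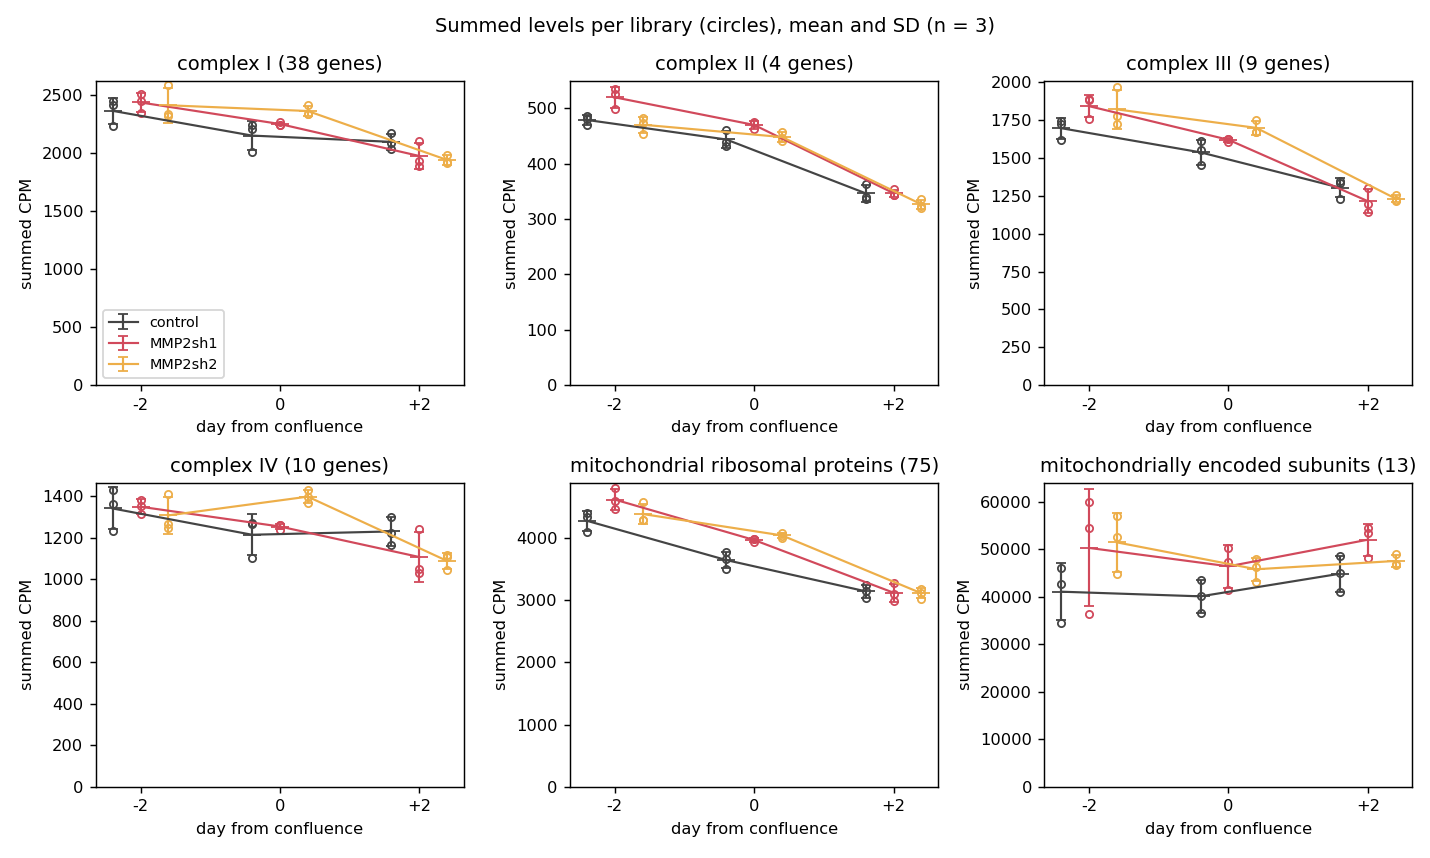
Summed CPM per library (y axis, from 0) at each day (x axis) for the members of each complex and for mitochondrial ribosomal proteins and mitochondrially encoded subunits. Circles are libraries, and lines and bars are the mean and SD of 3 libraries in control, MMP2sh1 and MMP2sh2. Complex II went from 479 ± 8.82 to 346 ± 14.8 CPM in control and the mitochondrially encoded sum was 41060 ± 6030 and 44840 ± 3796 CPM.

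NDUFA4 (GRCh37 chromosome 7, 10971570 to 10979780, minus strand) did not follow the other members. It was named as a subunit of complex I and has since been assigned to complex IV. Its level in control was 181, 176 and 146 CPM at day −2, 142, 120.0 and 131 CPM at day 0 and 172, 190.5 and 180.4 CPM at day +2. The libraries of day 0 were thus the lowest and those of days −2 and +2 overlapped. In MMP2sh1 it was 134, 125 and 136 CPM, 158, 153 and 154 CPM and 184, 166 and 178 CPM at the 3 days, in a rising order with no overlap. In MMP2sh2 it was 118, 118 and 138 CPM, 139.5, 138 and 137 CPM and 151, 142 and 154 CPM, and days −2 and 0 overlapped. From day −2 to day +2 it rose in MMP2sh1 by 0.42 (SE 0.06, adjusted p = 4.11e-06) and in MMP2sh2 by 0.27 (SE 0.07, adjusted p = 0.000882), and had 0.11 (SE 0.06, adjusted p = 0.118) in control. From day −2 to day 0 it fell in control (−0.35, adjusted p = 6.63e-05) and rose in MMP2sh1 (0.24, adjusted p = 0.000944). It was the only member called higher from day 0 to day +2 in all 3 lines, although the call in MMP2sh2 (0.14, adjusted p = 0.0292) was lost in 7 of 12 alternatives. NDUFB1, a small accessory subunit of complex I, was called higher in MMP2sh1 alone (0.48), where 1 library of day +2 was at 36.1 CPM and the others were at 19.2 and 19.1 CPM. Without that library its log2 fold change was 0.10 and it was not called.

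**Figure D4:**
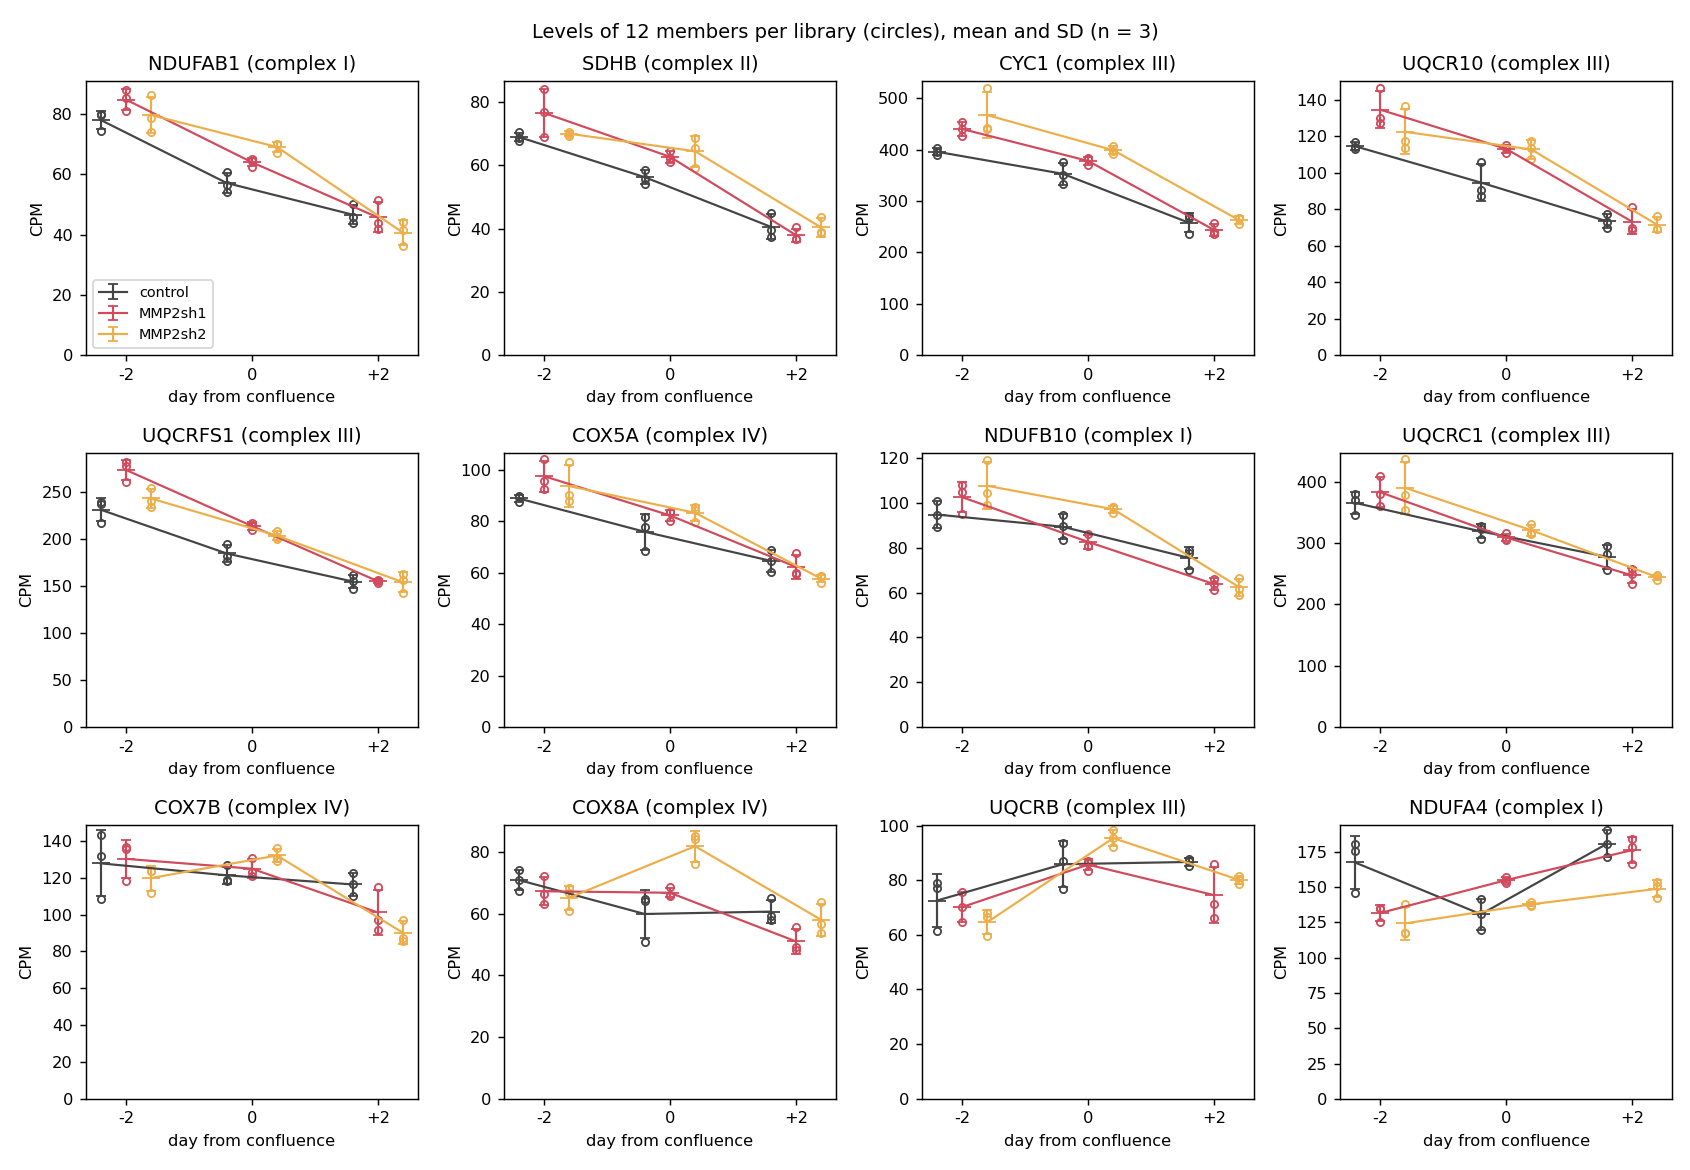
CPM per library (y axis, from 0) at each day (x axis) for 12 members named in the text. Circles are libraries, and lines and bars are the mean and SD of 3 libraries in control, MMP2sh1 and MMP2sh2. NDUFAB1, SDHB, CYC1, UQCR10, UQCRFS1 and COX5A fall over the 3 days, COX8A has its highest point in MMP2sh2 at day 0, and NDUFA4 is lowest in both hairpin lines at day −2.

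The change was also taken in 2 steps, before and after confluence, and the lines were unlike in them. From day −2 to day 0, 21 members were called lower and 2 higher in control (all genes 19.1% and 16.4%), 21 and 5 in MMP2sh1 (all genes 17.7% and 15%) and 13 and 9 in MMP2sh2 (all genes 16.4% and 13.9%). The largest falls of this step in control were in NDUFA1, NDUFAB1, NDUFA8 and NDUFC1 (−0.45, −0.44, −0.40 and −0.37), and in MMP2sh1 in NDUFB7, NDUFAB1 and UQCRFS1 (−0.41, −0.40 and −0.35). The largest rises in MMP2sh2 after UQCRB were in NDUFA12, COX8A, COX6C and NDUFA2 (0.35, 0.33, 0.29 and 0.25). The medians were −0.12, −0.083 and 0.011, and that of MMP2sh2 was near 0. There, with library totals, 18 were called higher and 4 lower, without replicate 3 of day −2 16 were called higher and 6 lower, and without replicate 1 of day 0 the count called fell from 22 to 13. In control, library totals gave 12 lower and 6 higher, and in MMP2sh1 they gave a median of −0.00528. From day 0 to day +2, 20 members were called lower and 8 higher in control (all genes 20.1% and 21.3%), 39 and 1 in MMP2sh1 (all genes 23% and 23.1%) and 46 and 1 in MMP2sh2 (all genes 23% and 22.5%). The medians of this step were −0.072, −0.21 and −0.31. The largest falls were in NDUFAB1, SDHB, UQCR10, NDUFB10 and CYC1 in MMP2sh2 (−0.74, −0.65, −0.63, −0.61 and −0.58) and in SDHB, UQCR10 and CYC1 in MMP2sh1 (−0.71, −0.62 and −0.62). In control NDUFC2, NDUFA3 and UQCR11 were called higher after NDUFA4 (0.29, 0.28 and 0.25). In MMP2sh2 all 9 genes of complex III and all 10 of complex IV were called lower after confluence. In control, complex IV had 1 gene lower and 2 higher in the same step. In all 3 lines at once 8 members (13.1%) were called lower and 1 higher up to day 0 (all genes 10.6% and 7.37%). That share called lower is near that of all genes. After day 0, 17 members (27.9%) were called lower and 1 higher in all 3 lines (all genes 15.2% and 15%). In control the median of the step after confluence was −0.017 without replicate 3 of day 0 and −0.11 without replicate 2 of day 0.

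Other mitochondrial genes encoded in the nucleus moved with the members from day −2 to day +2. Of 18 genes of ATP synthase and its inhibitor, 12 were called lower in control, 16 in MMP2sh1 and 16 in MMP2sh2, and 0 higher in any line. The largest falls were in ATP5G1, a gene of the rotor ring, at −0.92, −1.14 and −0.99, and ATP5B, the catalytic beta subunit, at −0.69, −0.995 and −0.87. Of 74 tested mitochondrial ribosomal proteins, which make the mitochondrially encoded subunits, 60, 67 and 64 were called lower in the 3 lines, with MRPL12 at −1.06, −1.34 and −0.93. Of 42 assembly factors of the chain, 23, 22 and 19 were called lower and 3 higher in each line, and ECSIT, a complex I assembly factor, changed by −0.96, −1.23 and −0.90. Of 14 genes of the TCA cycle, 10, 11 and 10 were called lower and 1 higher in each line. OGDH, the first subunit of the oxoglutarate dehydrogenase complex, changed by −0.74, −0.84 and −0.90, and IDH2, the mitochondrial NADP isocitrate dehydrogenase, rose in every line (0.88, 0.89 and 0.64). The medians of these 4 lists lay between −0.57 and −0.18.

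The 13 subunits encoded on mitochondrial DNA had unlike calls in the 3 lines. Among them 4 were called higher and 2 lower in control, 1 and 2 in MMP2sh1 and 1 and 6 in MMP2sh2, and their medians were 0.060, 0.012 and −0.054. Their summed level was 41060 ± 6030 CPM in control at day −2 and 44840 ± 3796 CPM at day +2 (SD, n = 3), and 50270 ± 12310 and 52000 ± 3372 CPM in MMP2sh1 and 51440 ± 6217 and 47530 ± 1262 CPM in MMP2sh2, and the days overlapped in each line. Cytosolic ribosomal proteins had 33 of 86 called higher and 17 lower in control, 8 and 37 in MMP2sh1 and 11 and 34 in MMP2sh2. Of 14 proliferation genes 10, 8 and 9 were called lower in the 3 lines, and their part in the fall of the members was not tested. In control 6 of the 14 were called higher and 0 lower from day −2 to day 0, and 13 were called lower from day 0 to day +2.

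Among 12 regulators of mitochondrial genes the coactivators went in opposite directions. PPARGC1A, the coactivator PGC-1 alpha, rose from 2.83 ± 0.35 CPM at day −2 to 7.96 ± 0.54 CPM at day 0 and 14.5 ± 1.07 CPM at day +2 in control (SD, n = 3), with 2.35, 2.44 and 1.77 in the 3 lines on the log2 scale. PPARGC1B, its relative PGC-1 beta, fell from 20.4 ± 0.63 to 9.27 ± 1.55 CPM in control, with −1.14, −1.56 and −1.37. PPRC1, ESRRA, POLRMT, the mitochondrial RNA polymerase, and TFB2M were called lower in every line, and GABPA, the DNA-binding subunit of GABP, was called higher in every line (0.34, 0.54 and 0.57). NRF1 was called lower in control and MMP2sh2 (−0.28 and −0.25) and had −0.11 in MMP2sh1. YY1 was called in no line. The list also held TFAM, TFB1M and GABPB1, whose values are not given here.

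The members with a searched motif were described in the same comparison. Of the 10 with the NRF1 core, 8 were called lower from day −2 to day +2 in all 3 lines, with medians of −0.35, −0.51 and −0.45 in control, MMP2sh1 and MMP2sh2. Of the 9 with the YY1 core, 6 were called lower in all lines, with medians of −0.39, −0.46 and −0.40. Of the 8 with the ETS core, 4 were, with medians of −0.23, −0.30 and −0.33. Of the 29 members with a window and none of these letters, 13 were called lower in all lines, with medians of −0.17, −0.37 and −0.29. The motif groups overlap, and SDHB, for example, is counted under NRF1 and YY1. Of the 22 members with any of these letters, 13 were called lower in all lines, with medians of −0.25, −0.44 and −0.37. Of the 18164 genes tested in every line, 21.6% were. That share was not taken for other genes holding these letters. These are counts over the members and no test was made on them. The genes are spread over 20 chromosomes, with 9 on chromosome 19, and their canonical transcripts are 317 to 11660 bases long with a median of 763. Members below that length and the others had 13 of 30 and 17 of 31 genes called lower in all lines.

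The next comparisons asked how the hairpin lines differed from control at each day. The 3 control libraries of a day serve for both lines, so a call in both is not independent evidence. At day −2 few members were called. MMP2sh1 had 7 of 60 higher and 1 lower (all genes 5.42% and 6.14%), and NDUFA13 was not tested there because of its few counts. MMP2sh2 had 2 of 61 higher and 1 lower (all genes 4.71% and 6.33%). The gene called lower was NDUFA4 in both, with −0.35 (SE 0.07, adjusted p = 0.000893) in MMP2sh1 and −0.44 (SE 0.07, adjusted p = 0.000259) in MMP2sh2. Its 3 control libraries at 181, 176 and 146 CPM were above the 3 of each hairpin line, and the call held under every alternative fit and left-out library. CYC1 was called higher in both, with 0.15 (adjusted p = 0.0489) and 0.23 (adjusted p = 0.00901). In MMP2sh1 the other genes called higher were COX6A1 (0.29), UQCRFS1 (0.24), UQCR10 (0.23), SDHD (0.22), NDUFA10 (0.20) and NDUFS3 (0.20). These counts changed when single libraries were left out, which also leaves fewer replicates in the fit. In MMP2sh1, 8 calls became 3 without control replicate 1, 4 without control replicate 2, 4 without control replicate 3 and 5 without MMP2sh1 replicate 2, and in MMP2sh2 3 calls became 5 without control replicate 3. With library totals 5 members were higher and 2 lower in MMP2sh1, and 1 higher and 2 lower in MMP2sh2.

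At day 0 more members were called higher than lower in the hairpin lines, and most in MMP2sh2. There 28 of 61 members were called higher and 0 lower, against 7.07% and 5.81% of all genes tested, with a median of 0.15. These were 8 of 10 genes of complex IV, 5 of 9 of complex III, 14 of 38 of complex I and 1 of 4 of complex II. COX8A (GRCh37 chromosome 11, 63742092 to 63744015, plus strand) had the largest difference. It was at 64.7, 50.8 and 64.2 CPM in control and 76.1, 84.2 and 85.2 CPM in MMP2sh2, with no overlap, a log2 fold change of 0.44 (SE 0.07, adjusted p = 1.34e-05). NDUFA1, an X-linked accessory subunit that complex I needs to assemble, was at 24.2, 20.4 and 22.8 CPM in control and 28.8, 34.4 and 26.1 CPM in MMP2sh2 (0.39, SE 0.09, adjusted p = 0.00218). NDUFA3, NDUFA2 and NDUFC1 followed, the first 2 with libraries that overlapped those of control, with 0.38, 0.34 and 0.33. MMP2sh1 had 14 members higher and 1 lower (all genes 8.26% and 8.58%), with a median of 0.070. Its largest differences were COX6A1 (0.32, adjusted p = 0.00436), NDUFB3, UQCR10, NDUFA1 and SDHD (0.26, 0.26, 0.25 and 0.25), and NDUFS8 was the gene called lower (−0.15). Called higher in both lines were NDUFA1, NDUFAB1, NDUFB2, NDUFB3, NDUFS3, NDUFV1, UQCR10, UQCRH and COX6A1. For UQCR10 these were 0.26 and 0.24, and for NDUFAB1 0.16 and 0.26.

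One control library bore on these counts. The summed level of the members at day 0 was 5465, 4989 and 5577 CPM in control replicates 1, 2 and 3, 5563, 5600 and 5614 CPM in MMP2sh1 and 5818, 6054 and 5843 CPM in MMP2sh2. Control replicate 2, the lowest, also had the highest share of reads on no gene of all 27 libraries (9.14%) and the lowest summed cytosolic ribosomal proteins of that day, at 62520 CPM against 67940 and 68780 CPM in the other control libraries. Without it, 11 members were called higher and 0 lower in MMP2sh2, and 6 higher and 3 lower in MMP2sh1. The count in MMP2sh2 was also 11 without MMP2sh2 replicate 2, that in MMP2sh1 was 8 without MMP2sh1 replicate 1 and 6 without MMP2sh1 replicate 2, and the fit of all 27 libraries gave 18 and 7. With library totals the count in MMP2sh2 was also 18. In MMP2sh2 55 of 86 cytosolic ribosomal proteins and 21 of 74 mitochondrial ones were called higher at the same day, and their part in the result was not tested.

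At day +2 the calls were in the opposite direction. In MMP2sh1 14 members were called lower and 0 higher (all genes 7.11% and 7.68%), with a median of −0.090. In MMP2sh2 13 were called lower and 0 higher (all genes 3.43% and 2.89%), with a median of −0.11. COX7B, an X-linked subunit of complex IV, was at 110.1, 122 and 117 CPM in control, 115, 91.9 and 96.9 CPM in MMP2sh1 and 85.8, 87.4 and 97.3 CPM in MMP2sh2. MMP2sh2 did not overlap with control and MMP2sh1 did. The log2 fold changes were −0.21 (SE 0.07, adjusted p = 0.0378) and −0.37 (SE 0.06, adjusted p = 2.96e-05). COX7A2 was at 91.5, 99.6 and 89.5 CPM in control, 84.5, 73.9 and 78.2 CPM in MMP2sh1 and 72.4, 77.4 and 81.1 CPM in MMP2sh2, with both lines below every control library (−0.25 and −0.28). The other genes called lower in both were NDUFB10 (−0.25 and −0.28), NDUFS5 (−0.23 and −0.24), COX6B1 (−0.24 and −0.23) and UQCRC1 (−0.17 and −0.19). In MMP2sh1 the largest was NDUFA5 (−0.28, adjusted p = 0.0169), followed by COX8A (−0.25) and NDUFA6 (−0.25). In MMP2sh2 NDUFA3, NDUFS6 and NDUFA4 followed COX7B, with −0.36, −0.29 and −0.28. No gene of complex II was called in either line at day +2.

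The count in MMP2sh1 at day +2 changed widely when single libraries were left out. It was 0 without control replicate 2, the control library with the highest summed level of the members at that day, 5 without control replicate 3, 3 without MMP2sh1 replicate 2, 7 without MMP2sh1 replicate 3 and 26 without MMP2sh1 replicate 1. In MMP2sh2 13 calls became 6 without control replicate 2, 8 without control replicate 3 and 5 without MMP2sh2 replicate 1, and 7 in the fit of all 27 libraries. Cytosolic ribosomal proteins moved the same way, with 27 of 86 called lower in MMP2sh1 and 25 of 85 in MMP2sh2, and their part in the result was not tested. The mitochondrially encoded subunits went the other way in MMP2sh1, with 10 of 13 called higher and 0 lower. Their summed level there, 48150 to 54430 CPM, overlapped with 41010 to 48600 CPM in control.

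**Figure D5:**
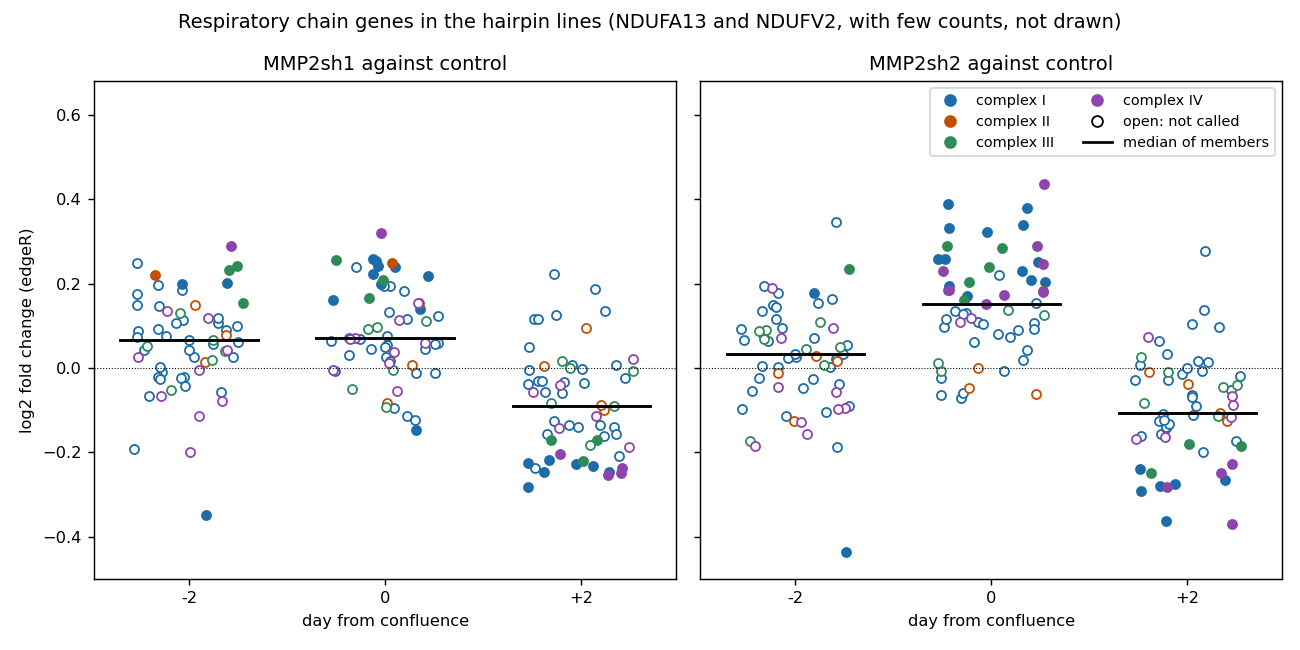
Log2 fold change against control (y axis, edgeR) of 59 members at each day (x axis), NDUFA13 and NDUFV2 left out, in MMP2sh1 (left) and MMP2sh2 (right). Each point is 1 gene, coloured by complex and filled where called at an adjusted p under 0.05, and the bar is the median of the members. The bars are above 0 at days −2 and 0 and below 0 at day +2, and NDUFA4 is the lowest filled point at day −2 in both panels.

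The hairpin lines were also compared with each other. At day −2, 3 members were called of 61, against 10.7% of all genes, and SDHD was higher in MMP2sh1 (0.34, SE 0.06, adjusted p = 0.000582), at 165, 146 and 155 CPM against 127, 119 and 121 CPM with no overlap. NDUFS8 was lower (−0.23), and the other call was NDUFA13 with its few counts. DESeq2 gave 3 higher and 1 lower, and library totals 2 higher and 2 lower. At day 0, 18 members were called, 3 higher and 15 lower in MMP2sh1 than in MMP2sh2, against 18.5% of all genes, and 5 higher and 12 lower with library totals. NDUFB7, an accessory subunit of complex I, had the largest of these (−0.38, SE 0.06, adjusted p = 1.38e-05), and NDUFA3, COX5B and COX8A followed with −0.33, −0.28 and −0.28. There were 6 genes of complex IV among the 15. SDHD was again higher in MMP2sh1 (0.30), as were NDUFA9 (0.27) and NDUFA4 (0.18). The other genes called lower were NDUFA6, NDUFS8, NDUFB10, UQCRQ, COX6B1, NDUFS5, COX6C, UQCRB, NDUFB4, COX4I1 and COX7C, between −0.24 and −0.11. At day +2, NDUFA4 was the only one of 61 called (0.24, SE 0.06, adjusted p = 0.00881), against 7.86% of all genes, and the call was lost without MMP2sh2 replicate 2. The count became 3 without MMP2sh1 replicate 1 or MMP2sh2 replicate 3, and at day −2 it became 1 without MMP2sh1 replicate 2.

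Whether the change from day −2 to day +2 differed between a hairpin line and control was tested as the interaction of line and day. The medians of the members were −0.19 for MMP2sh1 and −0.12 for MMP2sh2, in the direction of a larger fall in the hairpin lines. Few single genes were called, and both tests use the same control libraries. For MMP2sh1 these were 4 of 61, against 7.4% of all genes, and for MMP2sh2 4 of 61, against 4.98%. DESeq2 called 13 of 61 for MMP2sh1, 1 above 0 and 12 below. Its share of all genes is not given here, and the 7.4% is that of edgeR. NDUFB10 was called for both lines in edgeR, with −0.36 (SE 0.09, adjusted p = 0.0138) for MMP2sh1 and −0.46 (SE 0.10, adjusted p = 0.00255) for MMP2sh2. It was at 94.4, 101 and 89.1 CPM at day −2 and 69.8, 77.6 and 79.0 CPM at day +2 in control, at 105, 95.0 and 108 CPM and 66.2, 63.9 and 61.1 CPM in MMP2sh1 and at 99.1, 104 and 119 CPM and 61.6, 66.5 and 59.1 CPM in MMP2sh2. The call for MMP2sh2 held in all 18 alternatives, and that for MMP2sh1 in 16, without the fits that left out control replicate 3 of day −2 or of day +2. NDUFA4 was the only member with a called interaction above 0, for MMP2sh1 (0.31, SE 0.09, adjusted p = 0.0349). The other calls were UQCRH (−0.31) and UQCRFS1 (−0.24) for MMP2sh1, and UQCR11 (−0.36), NDUFS8 (−0.31) and UQCRC1 (−0.28) for MMP2sh2. The number called ran from 0 to 11 for MMP2sh1 and from 1 to 5 for MMP2sh2 when single libraries were left out, with 0 for MMP2sh1 without control replicate 3 of day +2 and 11 without MMP2sh1 replicate 1 of day +2. For MMP2sh1 it was 1 without control replicate 3 of day −2 or MMP2sh1 replicate 3 of day +2, 2 without control replicate 2 of day +2, MMP2sh1 replicate 1 or 3 of day −2 or MMP2sh1 replicate 2 of day +2, and 7 without control replicate 1 of day +2. For MMP2sh2 it was 1 without control replicate 1 or 3 of day −2, control replicate 2 or 3 of day +2, MMP2sh2 replicate 3 of day −2 or MMP2sh2 replicate 1 of day +2, and 2 without MMP2sh2 replicate 2 of either day.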

How the data were processed

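Poly(A) RNA from 27 U2OS libraries (3 lines, 3 days, 3 replicates each) was sequenced as paired reads. The authors deposited raw counts per gene symbol, made without regard to strand by HTSeq 2.0.0 from STAR 2.7.3a alignments to hg19 of reads trimmed by Trim Galore 0.6.0. The annotation given to HTSeq is not given in the sources used here. The lines that name no gene were kept out of library sizes, and reads on no feature came to 5.69% to 9.14%.

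Members were chosen by symbol. They and the other lists were chosen with earlier results of these data known. Genes passing filterByExpr (count minimum 10, total 15) in the 6 libraries of a comparison (12 for interactions) were tested with edgeR 4.0.16 (R 4.3.3) by the quasi-likelihood F-test with TMM factors, and p-values were adjusted over all genes tested (Benjamini-Hochberg) and called under 0.05. Each SE was taken as the absolute log2 fold change over the root of the F statistic. CPM values use TMM factors over all 27 libraries. Replicates differed beyond counting noise in every group. The test was checked on simulated counts.

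Genes were named where they belong to a fixed set of 13 members, were among the 5 largest called rises or falls of a comparison or of all lines, were called alike in both hairpin lines, in an interaction or between hairpin lines, or led another list. Genes named only to complete a list of calls were chosen after their values were seen. Alternatives were DESeq2 1.42.0, RLE factors, library totals, no filter, a replicate block, a fit of all 27 libraries and leaving out each library. Values of 1 member are not reported here by name. Gene positions are GRCh37, and promoter sequences are RefSeq on GRCh38.p14, with no conversion between them.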

Additional observations from a re-analysis of the deposited data

Results flagged for a closer look

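Among the 61 members, the change from day −2 to day +2 differed between a hairpin line and control for 8 values. This was a test of the difference itself (edgeR, interaction of line and day, adjusted p under 0.05). In the same tests 7.4% of all genes were called for MMP2sh1 and 4.98% for MMP2sh2. For MMP2sh1 these were NDUFA4 (0.312), NDUFB10 (−0.358), UQCRFS1 (−0.24) and UQCRH (−0.309) on the log2 scale, where a value below 0 is a larger fall in the hairpin line. For MMP2sh2 they were NDUFB10 (−0.458), NDUFS8 (−0.306), UQCR11 (−0.362) and UQCRC1 (−0.279). Of 18 alternative fits, the call was kept in 18 for NDUFB10 in MMP2sh2 and in 16 for NDUFB10 in MMP2sh1. It was kept in 12 for UQCRH, 10 for NDUFS8, 9 for NDUFA4, 7 for UQCRFS1, 7 for UQCRC1 and 6 for UQCR11. Both sets of tests share the control libraries. In each test the share of the members called was near that of all genes. The counts are thus not a result about the members as a set.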

How the results depend on the processing

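The fall of the members from day −2 to day +2 kept its direction in every line and alternative. Members called lower in all 3 lines, an alternative added after seeing the data, numbered 25 with library totals and 29 to 31 in the other full fits, and 29 to 33 with a library left out. With library totals the medians moved to −0.113 (control), −0.299 (MMP2sh1) and −0.191 (MMP2sh2) from day −2 to day +2, to −0.00528 (MMP2sh1) and 0.0772 (MMP2sh2) from day −2 to day 0, to −0.256 (MMP2sh2) from day 0 to day +2 and to −0.0355 between the hairpin lines at day 0. Library totals also gave 18 calls in MMP2sh2 at day 0 and 1 in the MMP2sh2 interaction. The fit of all 27 libraries gave, at day 0, 7 calls for MMP2sh1 and 18 for MMP2sh2, then 7 for MMP2sh2 at day +2, 6, 9 and 2 between the hairpin lines at days −2, 0 and +2, and 7 in the MMP2sh1 interaction. DESeq2 gave 2 between the hairpin lines at day +2 and 13 in the MMP2sh1 interaction, and no filter gave 4 and 8. The shares of all genes called in these fits are not given here. The cause was not tested.

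Replicate numbers did not pair the samples (correlations of deviations −0.11 to 0.16 over 36 pairs of groups). With the replicate block, 9 members were called in MMP2sh1 at day +2, 2 between the hairpin lines at day +2 and 2 in the MMP2sh2 interaction.

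Leaving out one library gave 3 to 7 calls for MMP2sh1 on day −2, 6 to 17 on day 0, and on day +2 the calls were 0 to 26 (median −0.169 to −0.0601), and 2 to 5, 11 to 27 and 5 to 14 in MMP2sh2. Between the hairpin lines it gave 1 to 3 at day −2 (median −0.00613 to 0.1) and 0 to 3 at day +2, and in the interactions 0 to 11 (MMP2sh1) and 1 to 5 (MMP2sh2). From day 0 to day +2 medians ran from −0.325 to −0.214 in MMP2sh1 and −0.355 to −0.3 in MMP2sh2. In MMP2sh2 they ran from −0.373 to −0.259 from day −2 to day +2, and from day −2 to day 0 there were 13 to 22 calls (median −0.0356 to 0.0311). Of 2687 alternative values of named genes, 2337 kept the call, 350 lost it and 0 reversed.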

Other observations

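PPARGC1A, the coactivator PGC-1 alpha, differed between the lines as well as between the days. At day 0 it was at 7.96 ± 0.54 CPM in control, 3.81 ± 0.64 CPM in MMP2sh1 and 4.05 ± 0.51 CPM in MMP2sh2 (SD, n = 3), with log2 fold changes against control of −1.06 (SE 0.15, adjusted p = 3.49e-06) and −0.99 (SE 0.15, adjusted p = 1.34e-05) in edgeR. At day +2 it was at 14.5 ± 1.07, 9.29 ± 2.26 and 8.14 ± 1.05 CPM, with −0.64 and −0.83, both called. It was not called in either line at day −2. PPARGC1B was called higher in MMP2sh1 at day −2 (0.47) and in no other comparison of a hairpin line with control.

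Subunit isoforms outside the rule that are used in muscle, testis or hypoxia were near 0. NDUFA4L2, COX4I2, COX6A2, COX7B2 and COX8C had group means of 0 to 0.184 CPM, and COX7A1 and COX6B2 of 0.42 to 1.67 CPM. COX7A2L, a factor of respiratory supercomplexes, was the only one expressed at the level of many members, at 134 ± 5.80 CPM in control at day −2 and 139 ± 7.76 CPM at day +2.

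Of the 13 mitochondrially encoded subunits, 3, 10 and 10 were called higher than control in MMP2sh1 at days −2, 0 and +2, against 5.42%, 8.26% and 7.68% of all genes tested. In MMP2sh2 10, 10 and 4 were called higher, against 4.71%, 7.07% and 2.89%, and 1 was called lower at day +2. Their summed level in MMP2sh1 at day −2, 36430, 54410 and 59980 CPM, overlapped with 34400, 46150 and 42630 CPM in control. MMP2sh2 at day −2, at 44760 to 57060 CPM, overlapped with control too. At day 0 the ranges were 36640 to 43490 CPM in control, 41500 to 50350 CPM in MMP2sh1 and 43130 to 47900 CPM in MMP2sh2. At day +2 they were 41010 to 48600, 48150 to 54430 and 46680 to 48980 CPM. Both hairpin lines overlapped with control at these days as well.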
